A study of Tupaia belangeri chinensis with 12 samples.

Results

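The solute carriers (SLC) are membrane proteins that move amino acids, sugars, ions, metals, nucleotides and transmitters across the cell surface and across the membranes of organelles. The genes described here are those whose symbol begins with SLC, a family number and a letter, and they were selected on their measured level: at least 1 FPKM (fragments per kilobase of transcript, scaled for the reads sequenced) in at least 3 of the 12 libraries. This rule kept 201 of 357 annotated solute carrier genes, among 14106 genes of any kind that reached the same level. Symbols that end in li and a number, which mark further copies of a gene, were left out. The presence of these genes in the cortex is a description and was not tested.

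Chinese tree shrews are small mammals close to the primates, and RNA of their fetal cortex was sequenced at embryonic day 37 by the labels. Strips of tissue were cut from frozen, Nissl-stained sections by laser. There were 4 layers with 3 libraries each: the ventricular zone (VZ), the inner and outer subventricular zones (ISVZ and OSVZ) and the cortical plate (CP). No treatment or genotype separates the groups. Nothing in the labels ties the libraries to separate animals. The p-values therefore cover the variation among these 12 samples alone, and part of it may be technical.

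As background, radial glia in the VZ divide to give intermediate progenitors and further radial glia in the subventricular zones, and the neurons made there settle in the CP. Radial glia and astrocytes take up glutamate through SLC1 carriers, while neurons load it into vesicles through SLC17 carriers with energy from a proton pump. Neurons also exchange early chloride importers for chloride exporters as they mature, which changes the direction of GABA currents.

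The tables hold no read counts. The median half-width of the deposited bounds was taken over the 142 solute carriers at 1 FPKM or more in every library. It ran from 6.88% of the value in OSVZ 3 to 13.7% in VZ 1, so a value from OSVZ 3 is the more precise one. Genes that fell below 1 FPKM in any library are not covered by it. Values below are scaled FPKM, which is per length, so levels of different genes can be set side by side. In bulk tissue, fewer cells of a type and less RNA per cell cannot be told apart. Many of these genes share their locus: 129 overlap another named gene and 147 have a named antisense locus. Where strand use is not stated, reads of such partners cannot be told apart, so these values are uncertain to that extent.

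Some libraries stood apart and are named before the results. In OSVZ 3, 17 of the 201 genes (8.46%) were more than 2-fold above both other OSVZ libraries, against 675 of all 14106 genes (4.79%). In VZ 2 this held for 7 (3.48%), against 242 of all genes (1.72%), and in ISVZ 1 for 6 (2.99%, against 1.74%). VZ 1 and VZ 2 carried markers of the choroid plexus, the secretory tissue of the ventricle: 6 markers summed to 560 and 2691 there, to 43.9 in VZ 3, and to at most 52.7 in the other layers. Most of that sum was TTR, the thyroid hormone carrier protein of the plexus. Motile cilia and ependyma markers were also highest in VZ 2: 6 markers summed to 21.1, 74.6 and 37.7 in the VZ libraries and to at most 8.62 in any other. Of the 4 tested, 4 fell in OSVZ and 3 in ISVZ against VZ.

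The ends of the wall were set apart by defining markers. All 6 radial glia markers fell in CP (PAX6, SOX2, VIM, NES, HES1 and GLI3), and their sum ran from 480 to 589 in VZ, 229 to 309 in ISVZ, 141 to 159 in OSVZ and 19.7 to 26.7 in CP. Of 6 projection neuron markers, 4 rose in CP, where the sum was 1231 to 1322 against 78.7 to 222 in VZ. Intermediate progenitor markers did not separate the germinal layers: 3 of 4 fell in CP, and 0 passed in OSVZ or ISVZ against VZ. EOMES, which defines these cells, had means of 57.3, 54.4, 44.1 and 0.232 from VZ to CP. None of the radial glia, projection neuron or interneuron markers was listed at 0 in every library.

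Across the 4 layers, 116 of the 201 genes (57.7%) passed limma's F test, and 51.7% of all genes tested did. Among those 116, the highest layer mean was in CP for 53 genes (26.4% of the 201, beside 20.9% of all genes) and in VZ for 47 (23.4%, beside 20.9%). It was in OSVZ for 12 (5.97%, beside 4.25%) and in ISVZ for 4 (1.99%, beside 5.7%). Like genes in general, solute carriers that passed were mostly highest at one end of the cortical wall or the other. The most abundant was SLC1A3, followed by SLC35F1 and SLC39A6; these 3 had means over 50 across the 12 libraries, and 44 genes had means of 10 or more. All 12 libraries reached 1 FPKM for 142 genes. Another 5 reached it in libraries of 1 layer only: SLC16A12 and SLC8B1 in VZ, and SLC16A7, SLC26A4 and SLC24A2 in CP. Those 5 could enter only through the layer where they are high, so their differences are descriptions.

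Against the mean of VZ, ISVZ and OSVZ, here called the germinal layers, CP differed for 106 genes (limma, adjusted p of at most 0.05 over all genes). Of these, 57 were higher in CP and 49 lower. The 57 included SLC16A7, SLC24A2 and SLC26A4, which could enter only through CP, and the 49 included SLC8B1, which could enter only through VZ. Over all genes tested, 52.7% passed in this comparison, 24% higher and 28.7% lower, and the solute carriers had 52.7%, 28.4% and 24.4%. Their median log2 difference was 0.02, beside -0.05 over all genes tested. As a family, then, solute carriers differed about as often as other genes, and the sections below go through them by what they carry. Of the 106, 71 passed in every fit that left out 1 library. The count was 76 when fits in which a gene fell under the filter were passed over. Such fits could not lose a call: SLC16A7, SLC24A2 and SLC26A4 were not tested without a CP library. The other 30 calls were lost in at least 1 such fit.

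Glutamate uptake divided between the ends of the wall. SLC1A3 (GLAST), the glutamate transporter of radial glia and astrocytes, lies at chromosome 11, 28162740 to 28259546, in the coordinates of the deposited tables. Its level was 255, 275 and 273 in the VZ libraries, 114, 73.6 and 87.5 in ISVZ, 57.4, 71.6 and 61.3 in OSVZ, and 18.1, 14.2 and 6.54 in CP. It fell from layer to layer with no overlap between VZ, the subventricular layers and CP, and ISVZ and OSVZ lay closest to each other. The CP difference was -3.16 ± 0.23 on the log2 scale (SE, adjusted p = 9.7e-07), and the ISVZ and OSVZ differences from VZ were -1.56 and -2.07. An antisense locus at this gene had a mean of 39.6, the highest of any antisense locus at a solute carrier.

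SLC1A1 (EAAC1), the glutamate transporter of neurons, took the opposite course. It stood at 4.77, 3.63 and 4.84 in VZ, 5.61, 7.93 and 6.53 in ISVZ, 8.94, 10.3 and 12.8 in OSVZ, and 29.8, 26.9 and 34.9 in CP. Every CP library was more than 2-fold above every other library, and the CP difference was 2.01 ± 0.13 (adjusted p = 4.82e-07). SLC1A6 (EAAT4), another neuronal glutamate transporter, rose from 1.85 ± 0.65 (SD, n = 3) in VZ to 9.80 ± 0.86 in CP, with a CP difference of 1.31. SLC1A2 (GLT-1), which takes over most glutamate uptake in the adult brain, was far below SLC1A3 at this age: 10.3 ± 2.0 in VZ and 4.12 ± 0.78 in CP, a difference of -0.72 against the germinal layers.

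Of the 10 carriers for transmitters, taurine and creatine, 3 rose and 2 fell in CP, with a median of -0.24. The third that rose was the taurine transporter SLC6A6, at 2.62 ± 0.21 in VZ, 3.45 ± 0.17 in ISVZ, 4.63 ± 0.68 in OSVZ and 7.18 ± 0.82 in CP. These 5 calls held without each library in turn. The glial GABA transporter SLC6A11 (GAT-3) had its highest mean in VZ, 17.9 ± 5.1, and 6.53 ± 0.52 in CP, and did not pass in this comparison (-0.64, adjusted p = 0.0884). Without OSVZ 1 this difference was -0.79 and passed by limma (adjusted p = 0.0118). The OSVZ values of SLC6A11 were 4.23, 8.35 and 17.1, low in OSVZ 1 and high in OSVZ 3. Markers of astrocytes were high where SLC1A3 and SLC6A11 were high: 4 of 5 fell in CP, and their sum was 154 to 254 in VZ and 15.4 to 17.7 in CP; their part in these differences was not tested.

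The carriers that load glutamate into vesicles had different peaks. SLC17A6 (VGLUT2) and SLC17A7 (VGLUT1) both fill synaptic vesicles with glutamate. SLC17A6 was 9.17, 2.34 and 5.36 in VZ, 20.3, 12.2 and 8.51 in ISVZ, 16.4, 18.9 and 15.4 in OSVZ, and 7.28, 9.29 and 2.93 in CP. Its OSVZ libraries were above every VZ and CP library, and its ISVZ libraries overlapped both. OSVZ exceeded VZ by 1.57 ± 0.43 (adjusted p = 0.0196), and CP was below OSVZ by -1.36 ± 0.43 (adjusted p = 0.0344). Neither call held in all fits: the first was lost without VZ 2 (1.15) or OSVZ 2 (1.49), and the second without OSVZ 1 (-1.38), OSVZ 2 (-1.28), OSVZ 3 (-1.42), CP 1 (-1.49) or CP 3 (-0.95).

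SLC17A7 lies at chromosome 28, 10664226 to 10675707, and was highest in CP. It had 1.47, 0.457 and 2.44 in VZ, 8.87, 1.18 and 1.48 in ISVZ, 17.5, 11.3 and 6.03 in OSVZ, and 37.0, 19.9 and 13.8 in CP. The libraries of a layer differed widely, and OSVZ 1 exceeded CP 3. Still, the CP difference of 2.28 ± 0.48 passed (adjusted p = 0.00191), in every fit that left out 1 library too, and it was the largest rise among the 201 genes. The difference of OSVZ from VZ was 2.34 ± 0.58 and was lost without VZ 2 (2.00). Projection neuron markers were high in the same layers, and their part was not tested.

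SLC32A1 (VGAT), which loads GABA and glycine and marks inhibitory neurons, was spread over the germinal layers. It had 8.98, 12.5 and 7.43 in VZ, 5.33, 17.2 and 12.8 in ISVZ, 4.20, 6.84 and 42.3 in OSVZ, and 3.93, 4.95 and 1.29 in CP. OSVZ 3 was the highest library, and ISVZ 1 the lowest of its layer. The CP difference of -1.48 ± 0.56 passed narrowly (adjusted p = 0.043). It did not pass without VZ 1, VZ 2, VZ 3, ISVZ 2, ISVZ 3 or any 1 of the CP libraries, where it ran from -1.75 to -1.06. All 8 interneuron markers fell in CP, with sums of 305 to 451 in VZ, 157 to 573 in ISVZ, 89.6 to 148 in OSVZ and 27.1 to 68.2 in CP. That sum was 148 in both OSVZ 2 and OSVZ 3, but its members differed. GAD2 had 2.86, 4.66 and 12.7 in the OSVZ libraries, DLX6 had 1.36, 1.1 and 14.5, and DLX5 had 5.07, 8.35 and 15.9, high in OSVZ 3 as SLC32A1 was, while DLX1 had 25.2, 46 and 26.6. ISVZ 1 was the lowest ISVZ library for SLC32A1 and for the sum. The part of these cells was not tested.

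Of the 6 vesicular carriers, 1 rose and 1 fell in CP, with a median of -0.13 (0.00 with quantile normalisation, where 2 rose and 0 fell). The other 4 did not pass, among them SLC18A2, the vesicular monoamine transporter, at 0.30 to 3.96 across libraries, and SLC10A4, at 1.70 to 7.26. SLC18A2 did pass without ISVZ 1, where it was lower in CP (-0.46).

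**Figure D1:**
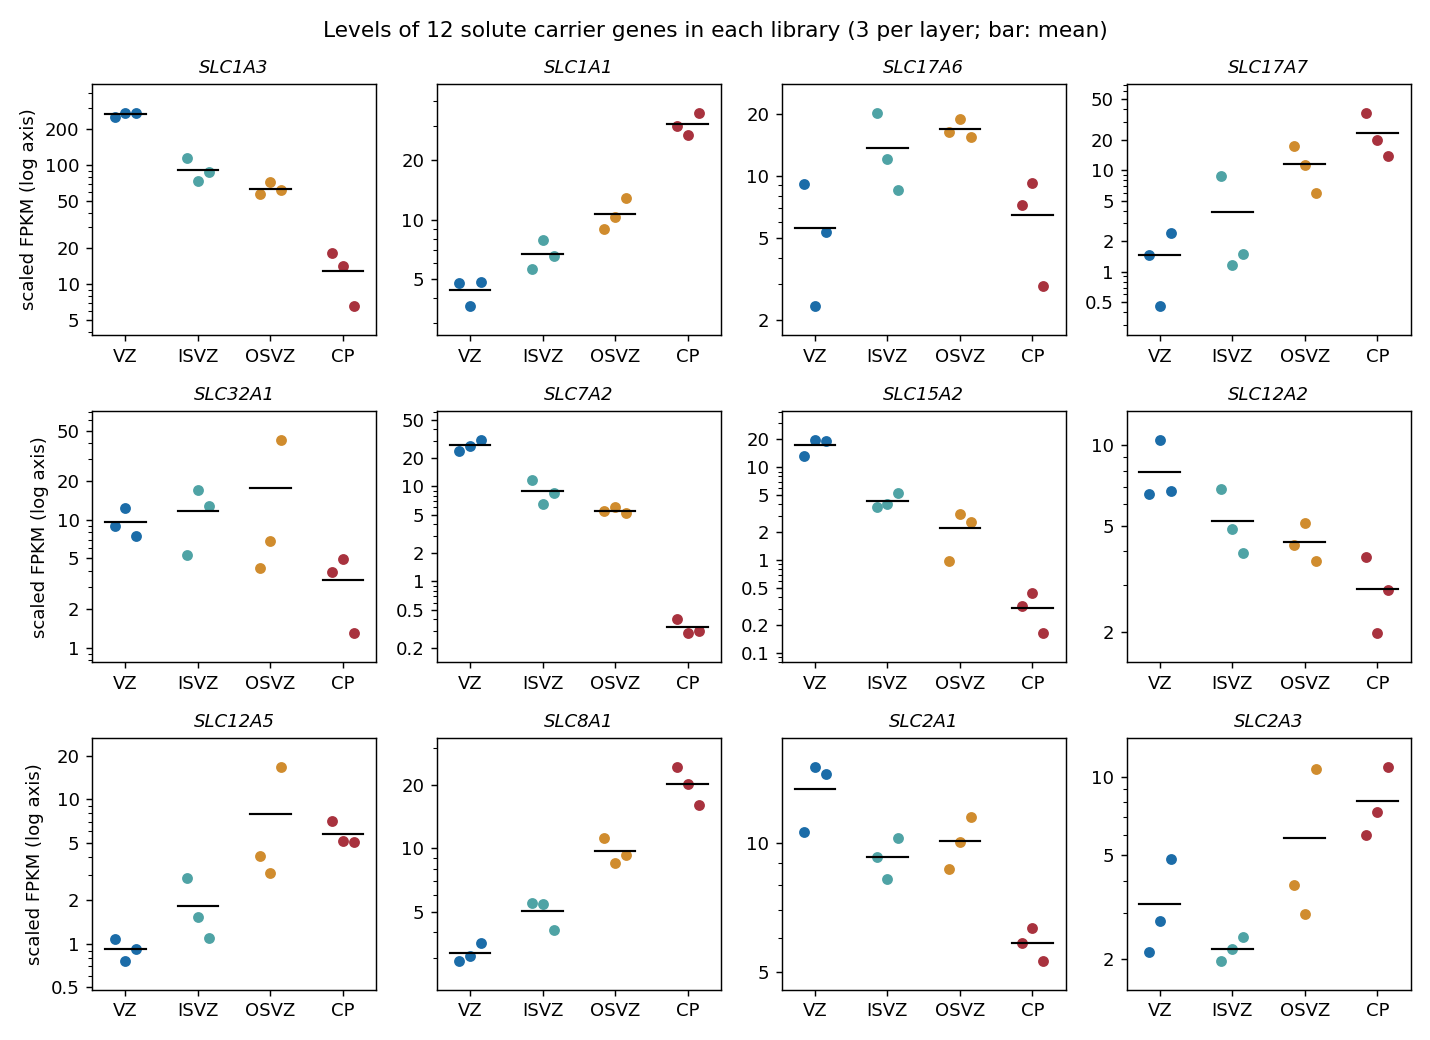
Scaled FPKM (log axis) of 12 solute carrier genes in each of the 12 libraries, by layer; points are libraries and bars are means of 3. SLC1A3, SLC7A2 and SLC15A2 step down from VZ to CP, SLC1A1, SLC17A7 and SLC8A1 step up, and 1 OSVZ library stands high for SLC32A1, SLC12A5 and SLC2A3.

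The proton pump that powers vesicle loading moved more uniformly than the carriers. Of 12 pump genes tested, 11 rose in CP and 0 fell. ATP6V1G2, a subunit enriched in neurons, differed by 1.61 and the accessory subunit ATP6AP2 by 1.29, while ATP6V0C, of the membrane ring, had 0.37 and did not pass (adjusted p = 0.0751). Enzymes of transmitter metabolism were mixed, with 3 higher and 3 lower of 9 tested. GOT2 (0.67), which exchanges amino groups between aspartate and glutamate, was higher in CP, and glutamine synthetase GLUL (-0.97) and GAD2 (-2.35), which makes GABA, were lower. These lists were chosen with earlier results known and are descriptions.

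Among 26 carriers of amino acids and peptides, 8 were lower in CP and 5 higher, with a median of 0.04 (-0.01 with FPKM as deposited). The number higher was 9 without OSVZ 3 and 3 without CP 2 or CP 3. The steepest fall among the 201 genes was that of SLC7A2 (CAT2), which carries arginine, lysine and ornithine and lies at chromosome 20, 41000767 to 41086997. It had 23.6, 26.4 and 30.9 in VZ, 11.7, 6.58 and 8.53 in ISVZ, 5.46, 6 and 5.20 in OSVZ, and 0.403, 0.284 and 0.304 in CP. No layer overlapped another, and all CP libraries were below 1. The CP difference was -3.19 ± 0.14 (adjusted p = 3.58e-08), and those of OSVZ and ISVZ from VZ were -2.09 and -1.52.

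SLC15A2 (PEPT2), which takes up small peptides with protons, was similar. Its level was 13.4, 19.8 and 19.1 in VZ, 3.75, 4.03 and 5.25 in ISVZ, 0.987, 3.13 and 2.58 in OSVZ, and 0.321, 0.440 and 0.162 in CP. The layers did not overlap, and the largest step was the one out of VZ: ISVZ differed from VZ by -1.78, OSVZ by -2.56, and CP from the germinal layers by -2.36 ± 0.20 (adjusted p = 3.72e-06). These calls on SLC7A2 and SLC15A2 held in every fit that left out 1 library.

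Others that fell in CP at lower levels were SLC7A10 (-1.04), which exchanges serine and glycine in astrocytes, SLC43A3 (-0.97), and SLC38A3 (-0.90), a glutamine carrier of astrocytes. SLC43A3 was at 0.061 to 0.194 in CP and 1.55 to 2.15 in VZ. The glutamine carriers SLC38A1 and SLC38A2 were not called lower. SLC38A1, of neurons, had 11.8 to 15.4 in VZ, 18.5 to 20.8 in ISVZ, 19.5 to 22.6 in OSVZ and 23.0 to 29.3 in CP, with a CP difference of 0.55 ± 0.10. SLC38A2, at chromosome 7, 54600715 to 54666684, was the most abundant amino acid carrier of the 26 and did not pass (-0.03 ± 0.11).

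The large neutral amino acid exchanger is a pair of SLC7A5 (LAT1) and its heavy chain SLC3A2. SLC3A2 had means of 21.2, 15, 14.6 and 14.3 from VZ to CP and did not pass (-0.20 ± 0.16). SLC7A5 had means of 5.26, 6.08, 8.25 and 8.13 and did not pass in CP (0.31 ± 0.15, adjusted p = 0.101). The CP differences of 13 of the 26 genes did not pass. SLC7A11, the cystine carrier, stayed below the rule, with at most 1.59 in any library.

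Of 11 carriers for sugars and inositol, 4 were higher and 3 lower in CP, with a median of -0.07 (0.08 with quantile normalisation). Without CP 3, 1 was higher. The glucose transporters SLC2A1 and SLC2A3 moved in opposite directions. SLC2A1 (GLUT1), of glia and of the vessels of the blood-brain barrier, had 10.6, 15.1 and 14.5 in VZ, 9.29, 8.27 and 10.3 in ISVZ, 8.74, 10.1 and 11.5 in OSVZ, and 5.85, 6.34 and 5.33 in CP. All CP libraries were below all others, a difference of -0.78 ± 0.12 (adjusted p = 0.000217). SLC2A3 (GLUT3), of neurons, had 2.13, 2.79 and 4.82 in VZ, 1.97, 2.19 and 2.42 in ISVZ, 3.85, 2.98 and 10.7 in OSVZ, and 5.98, 7.36 and 10.9 in CP. OSVZ 3 reached the CP level, and the CP difference of 1.04 ± 0.30 (adjusted p = 0.0121) was lost without CP 3 (0.83).

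Of 7 endothelial markers tested, 3 fell in CP, CLDN5 by 0.77, TIE1 by 0.69 and CDH5 by 0.59, and EGFL7 rose by 0.48. The sum of the list was 26.9 to 33.2 in VZ, 25.8 to 33.8 in ISVZ, 30.4 to 37.7 in OSVZ and 17.0 to 29.1 in CP. MFSD2A, a marker of the barrier, was at or near 0 in every library. Of 4 mural cell markers tested, 3 fell in CP, PDGFRB, RGS5 and NOTCH3, and the sum was 25.1 to 33.5 in VZ, 18.7 to 26.3 in ISVZ, 20.6 to 21.8 in OSVZ and 6.95 to 12.5 in CP. The part of vessels in the SLC2A1 difference was not tested. Among the others, SLC45A1, a proton-linked sugar carrier of the brain, rose by 0.85, from 3 ± 0.34 in VZ to 8.17 ± 0.82 in CP. SLC2A12 (GLUT12) and SLC2A8 (GLUT8) fell by 1.13 and by 0.91. SLC2A12 is taken up again with VZ 2.

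In the group of monocarboxylates, other carboxylates and fatty acids, 3 of 13 were higher and 2 lower in CP, with a median of -0.06 (0.08 with quantile normalisation). Leaving out CP 1 or CP 2 left 2 calls, and leaving out CP 3 left 3. SLC16A7, among those higher, could enter only through CP and was not tested in these fits, so part of the drop is not a lost call. SLC16A1 (MCT1), the main carrier of lactate and ketone bodies, had 18.1, 19.8 and 19.3 in VZ and 13.1 to 17.2 in every other library. VZ was thus above all other layers, OSVZ differed from VZ by -0.41 ± 0.10 (adjusted p = 0.00837), and CP did not pass (-0.19). SLC16A14, an MCT relative of unsettled substrate, rose from 0.146 to 0.293 in VZ to 2.98 to 3.77 in CP (1.33 ± 0.17), and OSVZ lay between. BSG, the chaperone that brings MCT1 to the membrane, differed by -0.57 in CP. Its relative NPTN was listed at 0 in every library, and EMB was under the filter.

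Cation-chloride cotransporters set chloride in neurons. Of 5 expressed, 3 fell and 1 rose in CP, with a median of -0.79. SLC12A2 (NKCC1), the chloride importer, had 6.56, 10.5 and 6.73 in VZ, 6.83, 4.86 and 3.95 in ISVZ, 4.22, 5.11 and 3.69 in OSVZ, and 3.80, 1.97 and 2.87 in CP. CP was lowest with slight overlap (CP 1 was above OSVZ 3), and the difference of -0.79 ± 0.19 passed (adjusted p = 0.00427). SLC12A5 (KCC2), the neuronal chloride exporter, had 1.09, 0.766 and 0.928 in VZ, 2.87, 1.54 and 1.1 in ISVZ, 4.06, 3.08 and 16.7 in OSVZ, and 7.02, 5.12 and 5.05 in CP. Every OSVZ and CP library was above every VZ and ISVZ library, and OSVZ 3 was the highest of all.

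The OSVZ difference of SLC12A5 from VZ was 1.90 ± 0.44 (adjusted p = 0.00844). Without OSVZ 3 it was 1.24 and still passed. Its CP difference of 0.99 ± 0.36 (adjusted p = 0.0372) did not pass without VZ 2, VZ 3, ISVZ 2, ISVZ 3, OSVZ 1 or any 1 of the CP libraries, where it ran from 0.86 to 1.07. In OSVZ, SLC12A5 was above SLC12A2 in OSVZ 3 only; in CP it was above SLC12A2 in all 3 libraries. SLC12A7 (KCC4) and SLC12A9 fell in CP by 1.18 and by 1.00. Among 8 kinases and partners that control these carriers, 3 were higher (WNK2, WNK3 and CAB39) and WNK1 was lower (-0.64) in CP.

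Bicarbonate, proton and anion exchangers were balanced in CP, with 7 of 18 higher and 6 lower (median -0.00, and 0.15 with quantile normalisation). Without CP 2 or CP 3 there were 8 calls, 4 of them higher. SLC26A4, among the 7 higher, could enter only through CP and was not tested in these fits. SLC9A7 (NHE7), a proton exchanger of the Golgi, rose from 1.76 to 2.17 in VZ to 7.58 to 9.02 in CP. Its CP difference was 1.30 ± 0.14, and no CP library overlapped any other layer. SLC9A9 (NHE9), its relative in endosomes, was high in VZ instead, with 2.84 to 3.36 there and 0.50 to 1.38 elsewhere; OSVZ differed from VZ by -1.02 and ISVZ by -1.05. SLC4A10, a neuronal bicarbonate carrier, rose by 1.04, and SLC4A4 (NBCe1), of astrocytes, fell by 0.72. SLC26A4 (pendrin) stayed below 0.26 outside CP and had 1.33, 2.16 and 1.09 there.

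Sodium-calcium exchange was the group with the highest CP median (0.75, of 4 genes). That rank is a description, since SLC24A2 could enter only through CP and SLC8B1 only through VZ. SLC8A1 (NCX1), at chromosome 12, 83486735 to 83960833, had 2.93, 3.08 and 3.55 in VZ, 5.52, 5.46 and 4.11 in ISVZ, 11.2, 8.48 and 9.34 in OSVZ, and 24.4, 20.2 and 16 in CP. Each layer was above the one before it with no overlap. CP exceeded the germinal layers by 1.70 ± 0.13 (adjusted p = 1.57e-06) and OSVZ exceeded VZ by 1.35 ± 0.16. SLC24A2 (NCKX2), the potassium-dependent exchanger of neurons, had 3.72, 1.54 and 3.87 in CP and less than 1 elsewhere. SLC8B1, the mitochondrial exchanger, had 1.41 to 2.63 in VZ and 0.10 to 0.69 elsewhere, and SLC24A5 did not pass (-0.06 ± 0.25). Leaving out a library of CP or VZ took SLC24A2 or SLC8B1 under the filter.

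The pumps that keep the gradients for these exchangers also divided. Of 7 tested, 4 rose in CP, among them the plasma membrane calcium pump ATP2B1 (1.67) and the sodium pump subunit ATP1B1 (1.42). The other 3 fell, among them the calcium pump ATP2B4 (-1.34).

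Among 26 carriers of zinc, iron, copper and magnesium, 7 rose and 5 fell in CP (median 0.07). SLC39A1 (ZIP1), a zinc importer, had 14.7, 16.5 and 15.9 in VZ, 10.3, 9.09 and 10.2 in ISVZ, 8.43, 7.87 and 7.34 in OSVZ, and 3.67, 3.63 and 3.39 in CP. Its layers did not overlap and its libraries varied little, so the CP difference of -1.36 carried an SE of 0.08 (adjusted p = 1.68e-07). SLC41A2, a magnesium carrier, was at 2.53 to 4.32 in the germinal layers and at 11.1, 9.55 and 10.6 in CP (1.39 ± 0.09). SLC30A4 (ZNT4), which moves zinc into endosomes, was at 2.04 to 3.75 and at 6.78, 8.48 and 7.91 in CP (1.22 ± 0.12).

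The most abundant metal carriers shifted less. SLC39A6 (ZIP6) had means of 53.2, 58.7, 54.4 and 81.4 from VZ to CP (0.54 ± 0.13), and SLC30A9 had 34.1, 34.5, 36.3 and 48.6 (0.47 ± 0.07). SLC39A7 (ZIP7), the zinc channel of the endoplasmic reticulum, did not pass. SLC11A2 (DMT1), an importer of iron, rose by 0.65, while the iron exporter SLC40A1 (ferroportin) had 4.22 to 6.58 in all libraries and did not pass. SLC30A10, a manganese exporter, had 3.97 to 5.58 in VZ and 1.17 to 2.51 elsewhere, and fell by 1.12 from VZ to OSVZ. SLC30A3, which loads zinc into glutamate vesicles, was at or below 0.062 in every library.

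Mitochondrial carriers were the largest group, and 9 of 29 rose and 4 fell in CP (median 0.15). SLC25A44, which imports branched-chain amino acids, had 15.9, 11.8 and 16.1 in VZ, 15.9 to 20 in ISVZ, 24.9, 21.8 and 28.1 in OSVZ, and 40.3, 50.7 and 45 in CP. CP was above all other libraries, with a difference of 1.25 ± 0.12 (adjusted p = 8.03e-06). SLC25A20, which imports acylcarnitines for fatty acid oxidation, had 17.9, 21.3 and 17.0 in VZ, 11.6, 13.7 and 13.7 in ISVZ, 9.72, 9.32 and 8.61 in OSVZ, and 5.18, 6.16 and 5.58 in CP. It stepped down in each layer with no overlap (-1.09 ± 0.09, adjusted p = 3.09e-06).

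Glutamate-linked carriers of mitochondria moved in both directions. SLC25A12, the aspartate-glutamate exchanger of brain, rose by 0.90, with 12.6 to 14 in CP and 5.20 to 9.43 elsewhere. SLC25A22 (GC1) rose by 0.70 and SLC25A18 (GC2), both glutamate importers, fell by 1.1, from 1.94 to 3.61 in VZ to 0.109 or less in CP. SLC25A4 (ANT1), an exchanger of ADP and ATP, rose from 30.3 ± 3.1 in VZ to 60.1 ± 8.3 in CP (0.87 ± 0.15). The other exchangers of this kind could not be read from their own names: SLC25A5 was listed at 0 in all 12 libraries and SLC25A6 was at 0.13 or less, while copies named SLC25A5li8 and SLC25A6li2 had means of 86.1 and 441. SLC25A3, the phosphate carrier, likewise had a mean of 1.4 and its copy SLC25A3li1 one of 94.6.

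The SLC35 family, which carries nucleotide sugars into the Golgi, had 7 of 22 higher and 5 lower (median 0.09). Without CP 2, 7 calls were left, and 2 of them were lower; without CP 1, 3 were lower. SLC35F1, whose substrate is not settled, was the second most abundant solute carrier. It had 85.6, 72.7 and 98.5 in VZ, 57.5, 57.1 and 72.1 in ISVZ, 60.4, 53.2 and 58.4 in OSVZ, and 97.9, 116 and 101 in CP. The ends of the wall were thus high and the middle low: OSVZ differed from VZ by -0.56 and CP from OSVZ by 0.86 ± 0.13 (adjusted p = 0.000834). SLC35F2 rose by 0.78 in CP and SLC35E3 fell by 0.77. SLC35A4 had 12.6 to 14.2 in VZ and 4.39, 0.751 and 3.62 in CP, and its difference of -1.29 was lost without CP 2 (-0.78).

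Among 6 carriers of phosphate and nucleosides, 2 rose in CP and 0 fell (median 0.17): the nucleoside transporters SLC29A1, by 0.80, and SLC29A2, by 0.84. The phosphate carrier SLC20A1 held between 19.9 and 27.4 in all libraries. In the group of vitamins, choline, thyroid hormone and organic ions, 3 of 16 were higher and 5 lower (median -0.01, and 0.07 with quantile normalisation); without OSVZ 3, 6 were higher, and without OSVZ 1 or CP 1, 3 were lower. The choline carriers differed in course. SLC44A1 had 15.2, 20.3 and 20.3 in VZ and 4.89 to 10.4 elsewhere (OSVZ minus VZ, -1.27), and SLC44A5 had 10.3 to 18.7 in VZ and 40.0, 40.8 and 57.1 in CP (0.85 ± 0.22).

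SLC22A4, the ergothioneine carrier, had 11.5 to 18.7 in VZ and 4.50 to 8.02 elsewhere, and SLC23A2, which takes up vitamin C in neurons, rose in CP by 0.80. SLCO1C1, a thyroid hormone carrier outside the numbered families, fell by 4 on the log2 scale and had means of 60.4, 20.2, 10.1 and 0.498. Of the 6 such SLCO genes tested, 3 were higher and 2 lower in CP, with SLCO3A1 at 2.09. SLC66A3, a relative of lysosomal exporters, was at 3.87 to 6.92 in the germinal layers and 12.6, 14.4 and 13.3 in CP. SLC14A1, the urea transporter, was at 0.0193 or less in CP and 0.405 to 2.48 elsewhere.

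A few genes carry a transporter's name but encode other proteins, and 3 of these 5 fell in CP and 1 rose. SLC9A3R1 (NHERF1), a scaffold under the apical membrane, had 18.5, 25.9 and 23.6 in VZ, 8.51, 6.96 and 9.49 in ISVZ, 5.41, 6.42 and 7.44 in OSVZ, and 1.70, 2.13 and 0.915 in CP. VZ, the subventricular layers and CP did not overlap, but OSVZ 3 was above ISVZ 2. The CP difference was -2.21 ± 0.16 (adjusted p = 9.31e-07). The related SLC9A3R2 (NHERF2) rose by 0.66, and the transcription factor SLC2A4RG fell by 1.80.

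**Figure D2:**
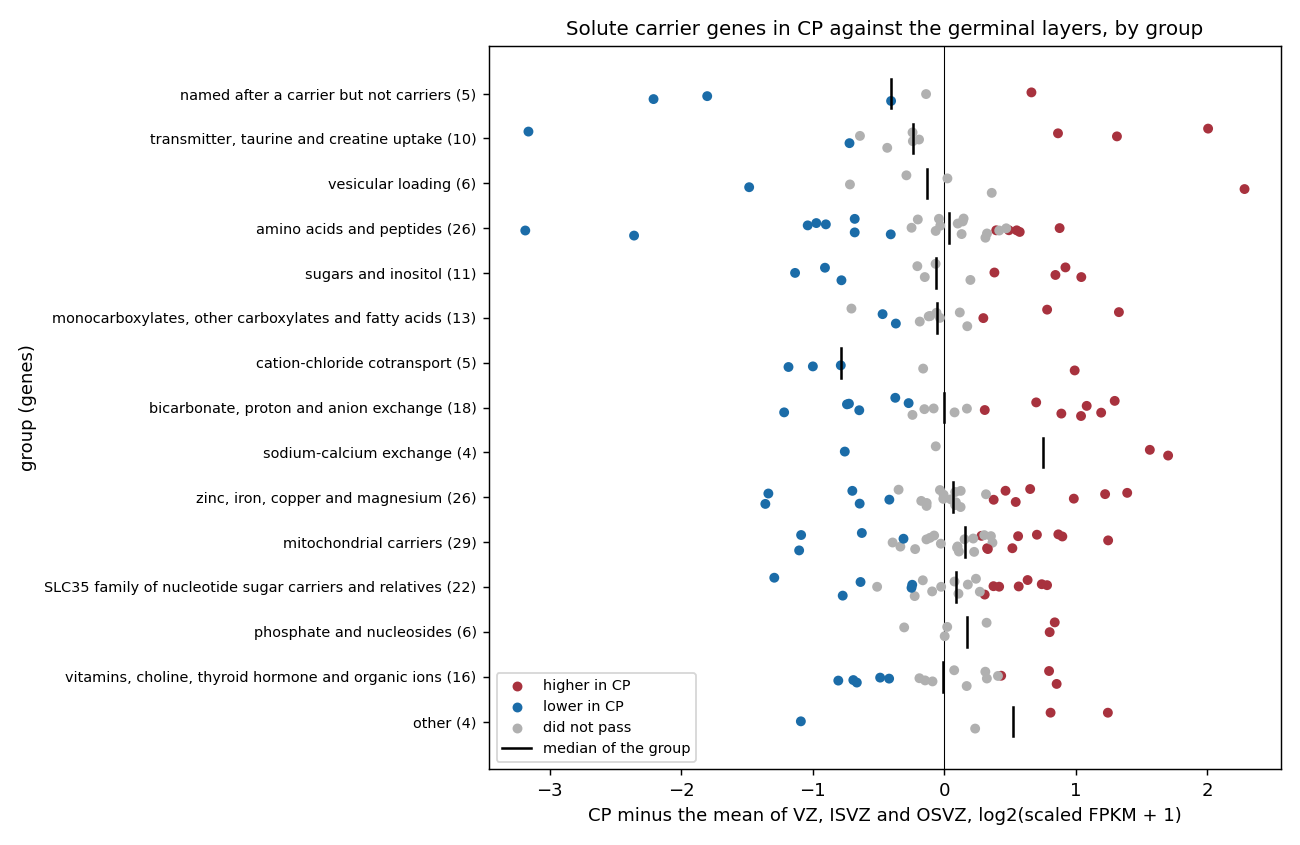
Log2 difference of CP from the mean of VZ, ISVZ and OSVZ for each of the 201 genes (points), by group, with the number of genes in brackets; the black line is the median of the group. Genes higher (57) and lower (49) in CP occur in nearly every group, and sodium-calcium exchange and cation-chloride cotransport have the highest and lowest medians. The sodium-calcium median includes SLC24A2, which could enter only through CP, and SLC8B1, which could enter only through VZ.

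**Figure D3:**
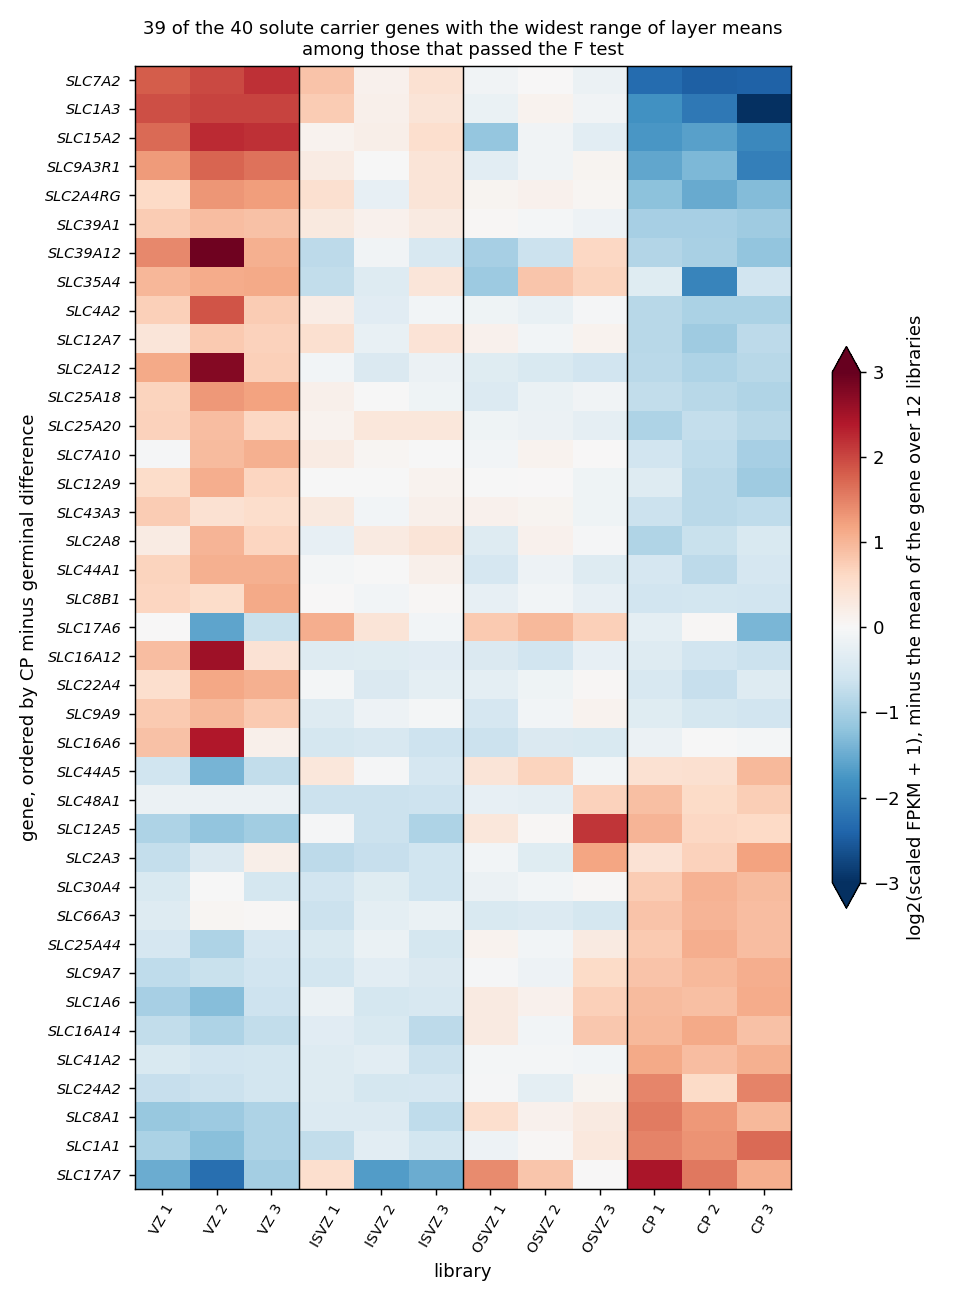
Heat map of 39 genes, from the 40 with the widest range of layer means among those that passed the F test, by library; colour is log2(scaled FPKM + 1) minus the gene's mean over the 12 libraries, so red is above and blue below that mean. Genes are ordered by their CP difference from the germinal layers, with the largest falls at the top and the largest rises at the bottom. This is not an order by highest layer: SLC12A5 rose in CP but had its highest mean in OSVZ. VZ 2 stands out for SLC39A12, SLC2A12, SLC16A12 and SLC16A6, and OSVZ 3 for SLC12A5.

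Within the germinal layers, OSVZ against VZ gave 67 calls among the 201 genes (33.3%), beside 27.8% of all genes tested. Of these, 34 were higher and 33 lower, 16.9% and 16.4%, beside 11.7% and 16.1% of all genes, and the medians were 0.03 and -0.02. The 33 included SLC16A12 and SLC8B1, which could enter only through VZ, and the 34 included SLC16A7, which could enter only through CP. This comparison shares libraries with the one above. Without VZ 2, 40 solute carriers passed, beside 2583 of the 13861 genes of any kind tested in that fit. Without VZ 1 and VZ 2 together, VZ kept 1 library, so no count is given. Of the 67, 37 passed in every fit that left out 1 library, and 39 did when fits in which a gene fell under the filter were passed over. Those lower in OSVZ were led by SLC15A2, SLC39A12, SLC7A2, SLC1A3 and SLC2A12, and those higher by SLC17A7, SLC12A5, SLC17A6, SLC8A1 and SLC1A6. SLC1A6 differed by 1.33 ± 0.19.

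The step from VZ to ISVZ was one of losses. There 26 genes passed (12.9%, beside 8.69% of all genes), 24 of them lower in ISVZ (11.9%, beside 7.15%) and 2 higher (0.995%, beside 1.54%). The 24 included SLC16A12 and SLC8B1, which could enter only through VZ, so the count is in part a description. With quantile normalisation 8 were higher and 21 lower, while 1171 of all genes passed, 370 of them higher. The count was 13 without VZ 2, beside 406 of 13861 genes of any kind. It was 16 without VZ 3 (beside 590 of 13872) and 12 without ISVZ 2 (beside 508 of 14055). The 10 that passed in every fit with 1 library left out were all lower in ISVZ: SLC15A2, SLC1A3, SLC7A2, SLC9A3R1, SLC22A4, SLC30A10, SLC25A18, SLC9A9, SLC44A1 and SLC39A1. Radial glia markers fell beside them, 4 of 6 in ISVZ, and their part was not tested.

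Between ISVZ and OSVZ, 0 solute carriers passed by limma, beside 0.603% of all genes tested. The 0.603% comprised 0.482% higher and 0.121% lower in OSVZ. At an unadjusted p under 0.05 there were 38 of 201, and 2819 of all genes. The smallest adjusted p was 0.0508, for SLC8A1, which had 4.11 to 5.52 in ISVZ and 8.48 to 11.2 in OSVZ. Without ISVZ 1, 9 passed, beside 556 of 13997 genes of any kind, and without OSVZ 2, 4 passed, beside 276 of 14038.

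From OSVZ to CP, 61 genes passed (30.3%, beside 31% of all genes), 32 higher (15.9%, beside 13.6%) and 29 lower (14.4%, beside 17.4%). The 32 included SLC16A7, SLC24A2 and SLC26A4, which could enter only through CP. Without CP 2 there were 38, beside 3290 of 13968 genes of any kind, and without OSVZ 2 there were 40, beside 3231 of 14038. SLC1A1 (1.44), SLC66A3 (1.4), SLC24A2 (1.25) and SLC41A2 (1.11) were the largest rises, though SLC24A2 was not tested without a CP library. SLC1A3 (-2.30), SLC7A2 (-2.30), SLC9A3R1 (-1.54) and SLC2A4RG (-1.44) were the largest falls that passed.

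In VZ 2, the 7 genes that stood above both other VZ libraries were SLC16A12, SLC16A6, SLC2A12, SLC39A12, SLC4A2, SLC7A6 and SLC7A8. SLC39A12 (ZIP12), a zinc importer of brain, had 5.15, 15.9 and 3.71 in VZ, at most 1.11 in ISVZ, 0.124, 0.432 and 2.46 in OSVZ, and at most 0.234 in CP. SLC2A12 had 4.87, 16.9 and 3.34 in VZ and at most 1.51 elsewhere. SLC4A2 (AE2), a chloride-bicarbonate exchanger, had 7.34, 17.9 and 7.66 in VZ, 3.02 to 4.94 in the subventricular layers and 1.63 to 1.86 in CP. The monocarboxylate relatives SLC16A6 and SLC16A12 had 2.76, 9.79 and 1.29, and 2.16, 8.65 and 1.22, in the VZ libraries.

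In each of these 5 genes VZ 1 and VZ 3 also exceeded every ISVZ library, so the VZ level was not set by VZ 2 alone. Without VZ 2 the OSVZ difference from VZ still passed for SLC2A12 (-1.39, from -2), SLC39A12 (-1.60, from -2.15), SLC4A2 (-0.87, from -1.25) and SLC16A6 (-1.03, from -1.66). SLC16A12 was not tested without VZ 2, since it reached 1 FPKM in the VZ libraries only. The difference of SLC7A8, an exchanger of neutral amino acids, went from -0.85 to -0.49 without VZ 2 and was lost; it was also lost without OSVZ 1 (-0.85), OSVZ 2 (-0.78) or OSVZ 3 (-0.92). Without VZ 1 and VZ 2 together, which left 1 VZ library, the difference of SLC39A12 was -1.42. The summed choroid plexus markers had the same order of VZ libraries as SLC39A12, SLC2A12, SLC16A6 and SLC16A12, highest in VZ 2 and then VZ 1. OTX2 of that list and the motile cilia sum were highest in VZ 2 and then VZ 3. The part of these cells in the levels was not tested. SLC13A4, a sulfate carrier, had 8.27, 53.1 and 0.516 in VZ and at most 0.590 elsewhere, and missed the rule because only 2 libraries reached 1.

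**Figure D4:**
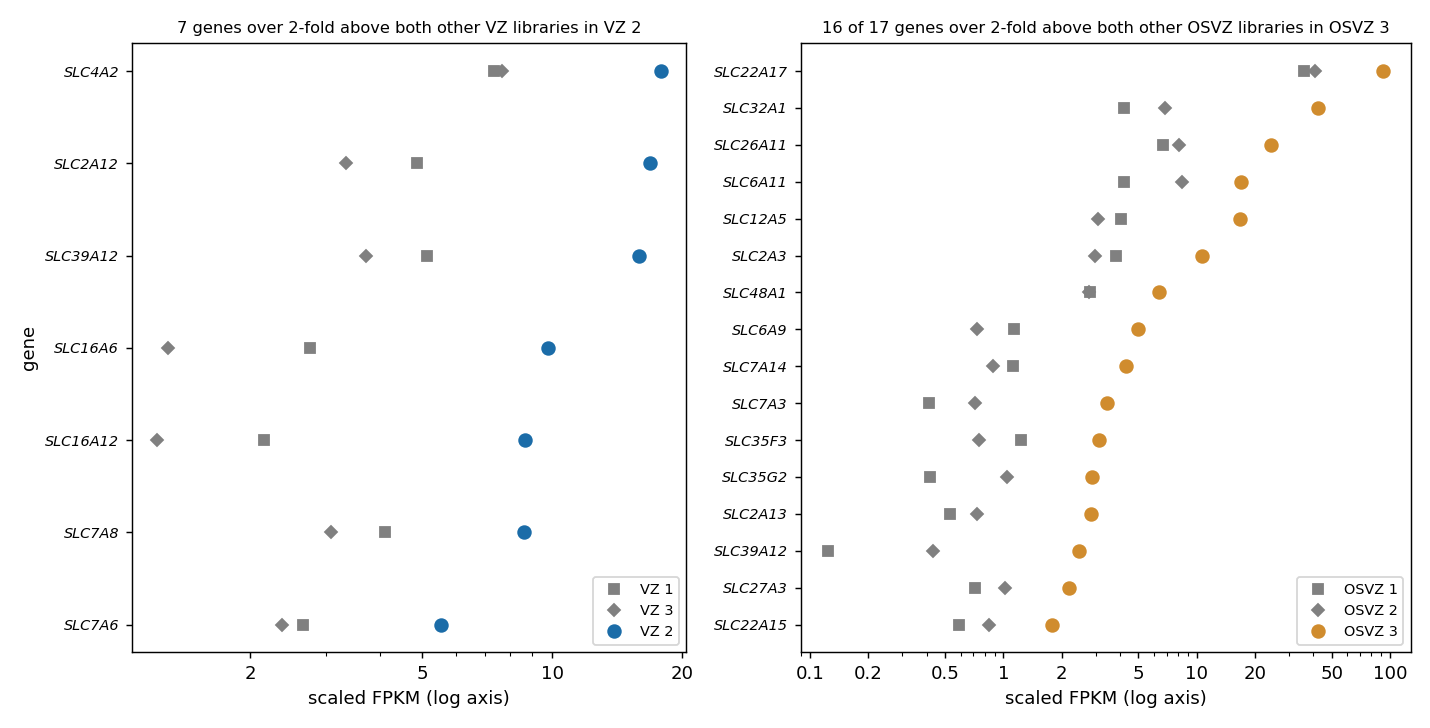
Scaled FPKM (log axis) of the genes over 2-fold above both other libraries of the layer, in VZ 2 (left, 7 genes) and OSVZ 3 (right, 16 of the 17 genes); coloured circles are the library that stands apart and grey symbols the other 2. The gap is widest on the right for SLC32A1, at 42.3 against 4.20 and 6.84.

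In OSVZ 3, the 17 genes included SLC32A1, SLC6A11, SLC6A9, SLC12A5, SLC2A3, SLC2A13, SLC7A3, SLC7A14, SLC22A15, SLC22A17, SLC26A11, SLC27A3, SLC35F3, SLC35G2, SLC39A12 and SLC48A1. Carriers for GABA and glycine were among them: SLC32A1, SLC6A11 and SLC6A9 (GlyT1), the last at 1.14, 0.734 and 4.96. SLC22A17, the lipocalin receptor and one of the most abundant solute carriers, had 35.8, 40.8 and 91.9 in OSVZ and 25.7 to 62.5 in all other libraries. Its CP difference was 0.41 (adjusted p = 0.187) and, without OSVZ 3, 0.55, which passed (adjusted p = 0.0106). SLC26A11, an anion carrier, had 6.73, 8.10 and 24.3 there, and its CP difference of 0.89 was lost without VZ 1 (0.83), OSVZ 2 (0.82), CP 2 (0.86) or CP 3 (0.69). SLC7A3 (CAT3), a neuronal arginine carrier, had 0.412, 0.714 and 3.45, and its OSVZ difference from VZ fell from 1.02 to 0.52 without OSVZ 3. With its copy SLC7A3li1 summed, the difference was reversed, to -0.87, and did not pass. The value without OSVZ 3 passed, while the call was lost without VZ 1, VZ 2, VZ 3, ISVZ 2, ISVZ 3 or any 1 of the CP libraries (1.00 to 1.06).

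At the edge of the rule, which asked for 1 FPKM in the third highest library, SLC10A7, SLC44A2 and SLC7A7 lay just inside. SLC2A11 (0.974), SLC66A1 (0.948) and SLC8A2 (0.911) lay just outside.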

How the data were processed

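Gene-level FPKM with bounds was deposited by the authors, 1 table per library; the submitters' processing notes list HISAT2 and Cufflinks. Tool versions, genome build and strand use were not given in the sources used here. Table names carry day 35; the labels were followed. Of 81418 gene IDs, 4 with a failed status were left out. Each library was scaled by its median ratio to the geometric mean over 10200 genes at 1 or more everywhere (factors 0.947 to 1.06). Differences are from limma 3.58.1 in R 4.3.3 on log2(scaled FPKM + 1), so they understate changes of low genes. The model had 4 layers, 8 residual degrees of freedom and an intensity trend. It was fitted on 14106 genes at 1 FPKM in 3 libraries, with Benjamini-Hochberg adjustment over all of them, a threshold of 0.05 and two-sided tests, and was tested on simulated data. Levels are mean ± SD; differences are ± SE.

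The members, groups and lists were chosen with earlier results of these data known. Genes named are the largest passing differences without overlap, up to 3 passing and 1 other per group, the 10 most abundant, set anchors and those nearest the rule; further examples, those of VZ 2 and OSVZ 3 included, were chosen after their values were seen. Alternatives covered scaling, pseudocount, filters, copies summed, a replicate block and libraries left out. A few genes counted in these groups are not reported here.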

Additional observations from a re-analysis of the deposited data

How the results depend on the processing

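Counts of solute carriers past the threshold moved by less than 1.5 times with FPKM as deposited, equal totals and a pseudocount of 0.1, in all 6 comparisons. A filter of 5 FPKM in 3 libraries tests fewer genes, 8798 of any kind. It gave 69 solute carriers by the F test, beside 5030 of all genes tested. In CP against the germinal layers it gave 64 (43 higher, 21 lower), beside 5067 (2475 higher). It gave 39 beside 2776 in OSVZ against VZ, and 14 beside 714 in ISVZ against VZ. OSVZ against ISVZ had 3 beside 299, and CP against OSVZ had 39 beside 3323. With no filter, 15 passed in ISVZ against VZ, beside 787 of 41048 genes of any kind, and 40 in CP against OSVZ, beside 3398. Without VZ 1 and VZ 2, 75 passed the F test, 17 in OSVZ against VZ and 3 in ISVZ against VZ. OSVZ against ISVZ had 1 with quantile normalisation, beside 156 of all genes, and 1 with copies summed, beside 86. Leaving out 1 library gave 40 to 70 in OSVZ against VZ, beside 2583 to 3974 of all genes. It gave 12 to 30 in ISVZ against VZ, beside 406 to 1370. OSVZ against ISVZ had 0 to 9, beside 2 to 556, and CP against OSVZ had 38 to 63, beside 3097 to 4401. With its copy summed, SLC7A3 changed sign, to -0.13 in CP and -0.87 in OSVZ against VZ; the copy SLC7A3li1 was highest in VZ. For the other moves the cause was not tested.

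Same-numbered libraries share only a number by the labels. Their deviations correlated at 0.0639 to 0.426 over 18 pairs, 16 of them above 0.1, and all 12 libraries correlated best with their own number. A replicate block gave 2 calls in OSVZ against ISVZ, beside 206 of all 14106 genes. It gave 122, 110, 77, 28 and 72 in the F test, CP, OSVZ against VZ, ISVZ against VZ and CP against OSVZ. Over all genes these counts were 8082, 7986, 4497, 1588 and 5013. Median bounds wider than 10% in some libraries, taken over genes at 1 FPKM or more everywhere, limit what can be seen in genes near 1 FPKM.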

Other observations

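Copies of solute carriers, named with li and a number, were outside the rule. Of 59 in the annotation, 21 reached its level, and 11 of these passed the F test, beside 51.7% of all genes tested. In CP 6 were higher and 5 lower, beside 24% and 28.7% of all genes. As a set, copies thus passed about as often as other genes. Reads could have been divided between such copies and the parent gene. SLC6A17li1, whose parent carries neutral amino acids into synaptic vesicles, had means of 1.14, 1.83, 6.26 and 14.4 from VZ to CP and a CP difference of 2.17. SLC6A15li1, named for a neutral amino acid carrier of neurons, had 6.85 ± 1.32, 7.86 ± 2.21, 12.7 ± 0.87 and 24.1 ± 1.46, and a CP difference of 1.36 (adjusted p = 1.7e-05). SLC25A6li2 had 403, 473, 542 and 346, and SLC25A5li8 had 122, 94.8, 64.5 and 62.7; both differed in CP, by -0.44 and by -0.51.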
